A study of Mus musculus with 4 samples.

Results

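The Hox genes are homeobox genes that lie in 4 clusters, Hoxa on mouse chromosome 6, Hoxb on chromosome 11, Hoxc on chromosome 15 and Hoxd on chromosome 2. They were followed here in YAMC cells, a conditionally immortalised mouse line labelled as young adult mouse colonocytes. The members were taken by name, as every gene called Hoxa, Hoxb, Hoxc or Hoxd with a paralogue number, which gave 38 of the 29179 genes of the deposited table. Of these, 33 reached 1 RPM (reads scaled to a library total of 1000000) in some library and were compared, among 15274 genes that passed that minimum. The 33 comprised 9 of 11 Hoxa genes, 9 of 10 Hoxb genes, all 9 Hoxc genes and 6 of 8 Hoxd genes.

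Hox proteins are homeodomain transcription factors that specify position along the head-to-tail axis. Within a cluster the genes are arranged by paralogue number, and low numbers are expressed early and towards the head while high numbers are expressed late and towards the tail, so that the hindgut and its mesoderm carry posterior Hox genes. Adult cells in culture often keep the Hox profile of the place they came from, a memory held by Polycomb and Trithorax chromatin complexes. Many Hox proteins bind DNA together with the homeodomain cofactors of the Pbx and Meis families. Paralogue numbers 1 to 3 are called anterior here, 4 to 8 central and 9 to 13 posterior.

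Each group was 1 library of polyadenylated RNA. All 4 cultures were at passages 10 to 12 and had been kept at 33 °C with 5 U/mL mouse interferon-γ. They were transfected with 50 nM of an siRNA, and 24 h later were moved to 37 °C without interferon-γ. From 48 h after transfection they were kept for 24 h either in medium alone or with tumour necrosis factor (TNF), an inflammatory cytokine, at 100 ng/mL. The groups were therefore a control siRNA in medium, the control siRNA with TNF, an siRNA against Sirt6 in medium and the Sirt6 siRNA with TNF. Sirt6 is a nuclear NAD-dependent deacylase of histones, and the design asked how its loss alters gene expression at rest and under TNF. With 1 library a group there is no replicate error, and a difference is one between libraries with no replicate check. Where 4 values stand together they follow that order, medium before TNF within each siRNA and the control siRNA ahead of the Sirt6 siRNA.

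The libraries held 18793708 to 23749380 reads, of which 5296 to 8822 fell on Hox genes. Sirt6 itself had 388, 352, 171 and 150 reads, so that Sirt6 siRNA against control siRNA gave log2 ratios of -1.26 (medium) and -1.41 (TNF). The colonocyte label was only partly borne out by marker genes. Krt8 and Krt18, keratins of simple epithelia, had 8162 to 14851 and 6671 to 13863 reads, but only 8 of 24 colon epithelium genes passed the minimum. Epcam, an epithelial adhesion molecule, had 0, 0, 0 and 2 reads, Cdx2, the intestinal master regulator, had 2, 0, 0 and 0, and its paralogue Cdx1 had none in any library. In contrast, 19 of 20 fibroblast and mesenchyme genes and all 9 mesothelium genes were measured. The cells are therefore called YAMC cells here, not colonocytes.

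All 4 clusters were active, and the posterior genes carried most of the Hox signal. Levels of different genes and clusters were compared only per kilobase of exon. Summed in that way, Hoxb had the highest level in every library, at 44.4 to 53.0 TMM-normalised RPM per kilobase, and Hoxd the lowest, at 17.3 to 27.7. Hoxc, at 28.4 to 32.8, lay above Hoxa, at 22.9 to 33.6, except in the library with Sirt6 siRNA in medium. By class, the 16 posterior genes summed to 76.1, 59.6, 80.1 and 60.9 RPM per kilobase, the 14 central genes to 52.8, 47.8, 56.0 and 47.6, and the 8 anterior genes to 7.46, 7.09, 9.70 and 7.42. The posterior sum was lower in both TNF libraries and exceeded the other classes together in every library.

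**Figure D1:**
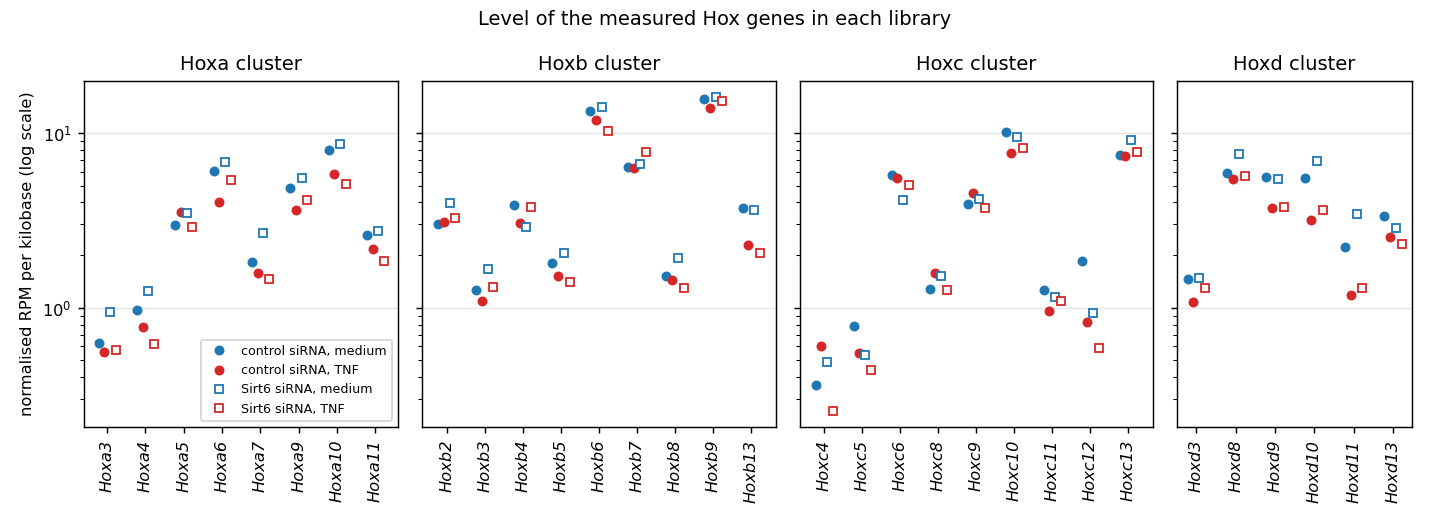
Level of measured Hox genes in each library, as TMM-normalised RPM per kilobase of annotated exon on a log axis. Filled symbols are control siRNA, open symbols Sirt6 siRNA, blue medium and red TNF; each point is 1 library. Hoxb9 and Hoxb6 have the highest mean levels per kilobase, and all 6 Hoxd genes drawn have both red points below both blue points.

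Hoxb9, a posterior gene that patterns the rib cage together with its group 9 paralogues, led with a mean of 15.2 RPM per kilobase over the 4 libraries. Hoxb6, a central gene of trunk mesoderm, followed at 12.3. Next came Hoxc10, which acts in the lumbar spinal cord, at 8.87, and Hoxc13, known for its role in hair, at 7.92. Hoxa10, needed in the uterus and the lumbar spine, stood at 6.89, Hoxb7 at 6.78 and Hoxd8 at 6.16. The order was not set by cluster, since each of the clusters placed a gene among these leaders. Among measured Hoxa genes the level per kilobase was lowest for the anterior Hoxa3, with a mean of 0.673. It was higher for Hoxa6, Hoxa9 and Hoxa10, at 5.59, 4.51 and 6.89. The level did not rise evenly with paralogue number, since Hoxa4, Hoxa7 and Hoxa11 stood at 0.902, 1.88 and 2.34. The exon lengths came from GENCODE M21, which may differ from the annotation used for counting.

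The 5 members that were not compared came from both ends of the numbering. The anterior ones were Hoxd1 and also Hoxa2 and Hoxb1, genes of the hindbrain and its neural crest. The posterior ones were Hoxa13 and Hoxd12, genes of the limb and hindgut. All of them stayed under the minimum. Hoxa2 had 2, 11, 17 and 14 reads, Hoxb1 had 0, 2, 5 and 2, Hoxd1 had 0, 4, 1 and 2, and Hoxa13 had 2, 1, 3 and 2. Hoxd12 had no read in any library, which allows up to 0.134, 0.16, 0.126 and 0.138 RPM, 3 reads per library. Group 13 was thus uneven: Hoxc13, Hoxb13 and Hoxd13 were measured, with means of 7.92, 2.91 and 2.76 RPM per kilobase, while Hoxa13 was close to that limit. None of 8 homeobox genes that neighbour the clusters or form the ParaHox group (Evx1, Evx2, Gsx1, Gsx2, Pdx1, Cdx1, Cdx2 and Cdx4) was measured. No gene named Hoxd4 and none of 10 listed noncoding genes of the clusters was in the deposited table, so they could not be analysed here.

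Some counts may include reads of neighbours. Libraries were not stated to keep strand, so a gene and its antisense partner cannot be told apart. In GENCODE M21, 62.3% of the exonic bases of Hoxd3 overlap other genes on the same strand, 52.9% of those of Hoxb3 overlap Hoxb3os on the opposite strand, and 35.0% of those of Hoxa11 overlap its antisense gene. Opposite-strand genes overlap 27.3% of Hoxb2, 25.4% of Hoxa3, 20.4% of Hoxa7 and 16.0% of Hoxa4. For Hoxd11 the share was 10.8% and for its neighbour Hoxd10 5.7%, both with the gene model Gm28309 on the same strand. The values of these genes are uncertain to that extent.

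With TNF, Hox transcripts were mostly lower, by modest amounts. By cluster, the median log2 ratio was lowest in Hoxd under control siRNA, at -0.51 against -0.31 in Hoxa, -0.18 in Hoxb and -0.06 in Hoxc. Under Sirt6 siRNA it was lowest in Hoxa, at -0.71, against -0.34 in Hoxb, -0.22 in Hoxc and -0.46 in Hoxd. Under both siRNAs, 25 of the 33 genes (75.8%) were lower with TNF, against 36.8% of all genes kept. The median log2 ratio of the 33 was -0.26 with control siRNA, where 28 were lower and 5 higher, and -0.40 with Sirt6 siRNA, where 30 were lower and 3 higher. Over all genes the medians were within 0.01 of 0, and 50.2% and 51.6% were lower. The 2 TNF comparisons share no library. After correction for GC content 27 and 29 of the 33 were lower. In a bulk library fewer cells of a type and less RNA per cell cannot be told apart.

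A gene is said to have risen or fallen where its ratio was at least 2 either way and the exact conditional binomial 95% interval of its read ratio, which covers counting error only, left out no change. By that size rule 1 Hox gene fell with TNF under control siRNA, Hoxc12, against 3.53% of all genes called in either direction, and 2 fell under Sirt6 siRNA, Hoxd11 among them, against 3.66%. None rose in either comparison. These counts, 3.03% and 6.06% of the members, were near the background. Hoxc12 met the 1 RPM minimum only in the control siRNA library in medium, the high side of its call. The minimum thus favoured that call. At a lower bar of 1.5-fold, 5 genes were lower under control siRNA (15.2% of members, against 4.46% of all genes), namely Hoxb13, Hoxc12, Hoxd9, Hoxd10 and Hoxd11. Under Sirt6 siRNA 8 were lower (24.2%, against 5.36%), among them Hoxa3, Hoxa4, Hoxa7, Hoxa10, Hoxb13, Hoxd10 and Hoxd11. Only 6 genes were lower with an interval leaving out no change under both siRNAs, namely Hoxa9, Hoxa10, Hoxb13, Hoxd9, Hoxd10 and Hoxd11, a share of 18.2% close to the 14.7% of all genes.

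**Figure D2:**
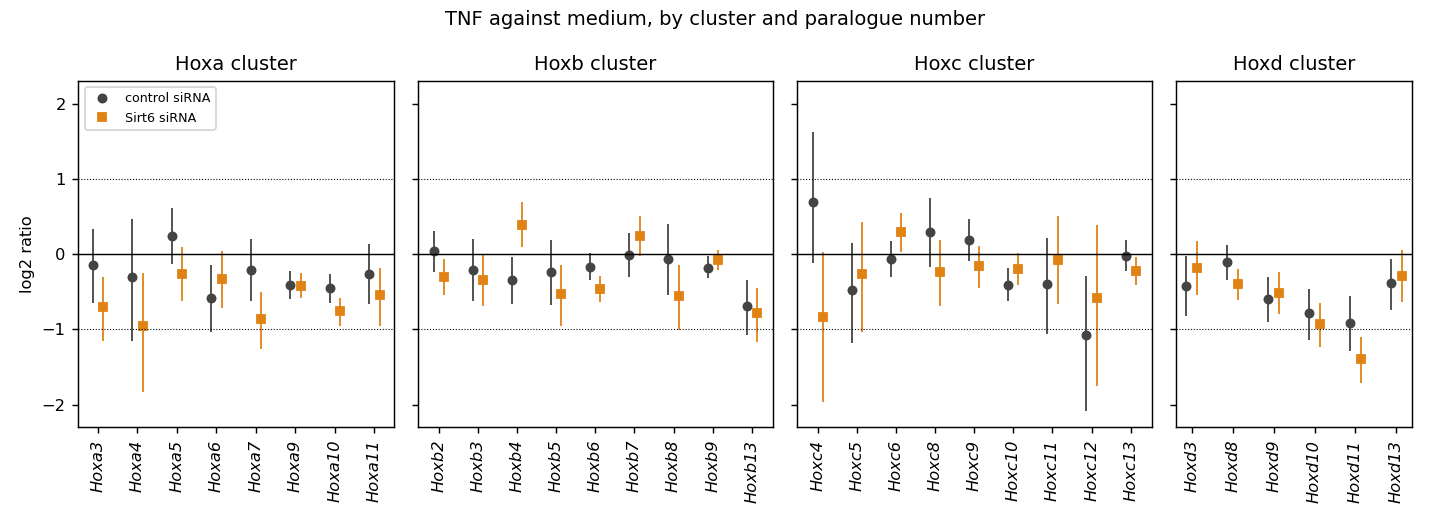
Log2 ratio of TNF against medium for measured Hox genes, ordered by paralogue number within its cluster. Circles are the control siRNA pair, squares the Sirt6 siRNA pair, vertical lines 95% intervals of counting error, and dotted lines a ratio of 2 either way. All 6 Hoxd genes lie below 0 in both pairs, and Hoxd11 reaches -1.39 with Sirt6 siRNA.

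Hoxd11, which with its paralogue Hoxa11 shapes the forearm and the kidney, gave the largest difference with TNF under Sirt6 siRNA. It had 213, 93, 347 and 116 reads, or 9.40, 4.97, 14.4 and 5.43 RPM. Both TNF libraries were below both medium libraries. The gene was 1.88-fold lower with TNF under control siRNA (log2 -0.91, interval -1.29 to -0.56) and fell 2.63-fold under Sirt6 siRNA (log2 -1.39, interval -1.72 to -1.10).

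Its neighbours moved alongside. Hoxd10, a gene of lumbar motor neurons and the hindlimb, had 227, 108, 303 and 140 reads, or 10.0, 5.77, 12.6 and 6.56 RPM. It was 1.73-fold lower with TNF under control siRNA (log2 -0.79, interval -1.14 to -0.46) and 1.91-fold lower under Sirt6 siRNA (log2 -0.93, interval -1.24 to -0.65), short of the size rule each time. Hoxd9, which acts with other group 9 genes in limb and axial patterning, had 272, 148, 280 and 173 reads, or 12.0, 7.90, 11.6 and 8.11 RPM. Its log2 ratios were -0.60 and -0.52, and the TNF libraries again lay below both medium libraries. Towards the ends of the measured Hoxd genes the ratios were smaller. Hoxd8, with 16.2, 15, 20.7 and 15.6 RPM, gave -0.11 and -0.40. Hoxd13, a hindgut and digit gene with 8.30, 6.30, 7.07 and 5.76 RPM, gave -0.39 and -0.29. Hoxd3, with 6.09, 4.54, 6.15 and 5.43 RPM, gave -0.42 and -0.18. In Hoxd8, Hoxd13 and Hoxd3 too, both TNF libraries lay below both medium libraries.

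The promoter windows of Hoxd9, Hoxd10 and Hoxd11 are printed because these adjacent genes had the lowest log2 ratios for TNF among measured Hoxd genes under each siRNA. They run from 250 bases before to 50 bases after an annotated start (RefSeq, GRCm38.p6, plus strand, 5′ to 3′), with CpG dinucleotides in capitals; Hoxd11 has 2 annotated starts, and their windows differ in CpG content.
Hoxd11, upstream start, chr2:74679308-74679607: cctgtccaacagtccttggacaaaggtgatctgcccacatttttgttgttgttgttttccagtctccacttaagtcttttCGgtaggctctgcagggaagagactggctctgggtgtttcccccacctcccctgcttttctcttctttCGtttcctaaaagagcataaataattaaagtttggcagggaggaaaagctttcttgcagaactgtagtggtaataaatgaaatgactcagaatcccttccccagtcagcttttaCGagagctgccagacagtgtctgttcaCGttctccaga
Hoxd11, downstream start, chr2:74682073-74682372: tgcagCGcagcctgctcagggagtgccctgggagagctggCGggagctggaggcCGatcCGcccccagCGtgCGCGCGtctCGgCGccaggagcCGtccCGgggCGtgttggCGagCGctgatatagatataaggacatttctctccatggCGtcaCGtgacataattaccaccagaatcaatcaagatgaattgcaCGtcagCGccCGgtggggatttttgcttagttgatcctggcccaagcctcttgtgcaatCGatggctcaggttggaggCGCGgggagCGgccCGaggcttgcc
Hoxd10, chr2:74691641-74691940: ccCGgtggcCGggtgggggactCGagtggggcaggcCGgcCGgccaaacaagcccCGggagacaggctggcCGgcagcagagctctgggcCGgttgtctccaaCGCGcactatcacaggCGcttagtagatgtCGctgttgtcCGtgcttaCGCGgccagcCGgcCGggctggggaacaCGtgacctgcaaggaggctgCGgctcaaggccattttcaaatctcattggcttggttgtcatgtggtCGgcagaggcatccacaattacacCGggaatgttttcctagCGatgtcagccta
Hoxd9, chr2:74697513-74697812: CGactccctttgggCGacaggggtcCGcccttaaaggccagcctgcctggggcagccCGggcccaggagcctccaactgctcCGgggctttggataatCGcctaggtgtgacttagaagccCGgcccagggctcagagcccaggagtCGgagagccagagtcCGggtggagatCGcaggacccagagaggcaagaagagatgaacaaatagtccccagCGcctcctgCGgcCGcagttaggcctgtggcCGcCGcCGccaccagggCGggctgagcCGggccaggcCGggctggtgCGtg

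The upstream Hoxd11 window held 4 CpG at a GC content of 45.7%, whereas the downstream one held 25 at 62.0%, Hoxd10 22 at 62.7% and Hoxd9 20 at 68.3%. The table of RefSeq promoters matched 21 of the 38 members with 23 windows. These had a median of 15 CpG and 58.0% GC, against 7 CpG and 52.7% GC over 32851 windows of all genes. The κB consensus, the motif of the NF-κB factors that TNF activates, matched on either strand in 1 of the 23 (4.35%), that of Hoxa13, against 8.46% of all windows. TGATTNAT, a motif of joint Pbx and Hox binding, matched on either strand in 2 of the 23 (8.70%), those of Hoxa2 and of the downstream Hoxd11 start, against 3.22%. TATAAA matched in 3 (13%), against 13.6%. A match describes letters in a window and no binding was measured here.

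In the Hoxa cluster the posterior pair gave the best-read differences. Hoxa10 had 592, 357, 680 and 355 reads, or 26.1, 19.1, 28.3 and 16.6 RPM, with log2 ratios for TNF of -0.45 (-0.65 to -0.26) and -0.76 (-0.95 to -0.58). Hoxa9, a regulator of blood progenitors, had 608, 378, 739 and 491 reads, or 26.8, 20.2, 30.7 and 23.0 RPM, with log2 ratios of -0.41 and -0.42. For each of these genes both TNF libraries were the lowest. Hoxa11, a gene of limb, kidney and uterus with 5.96, 4.97, 6.24 and 4.22 RPM, gave -0.26 and -0.55.

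Anterior and central Hoxa genes were read more thinly, and Hoxa3, Hoxa4 and Hoxa7 differed mainly in the Sirt6 siRNA pair. Hoxa3, needed for the thymus and parathyroid, had 3.75, 3.36, 5.65 and 3.42 RPM and log2 ratios of -0.15 and -0.71. Hoxa4 had 1.55, 1.23, 2.0 and 0.984 RPM and log2 ratios of -0.31 and -0.96. Hoxa7 had 5.25, 4.54, 7.65 and 4.17 RPM and log2 ratios of -0.21 and -0.86. In Hoxa3 and Hoxa7 the library with Sirt6 siRNA in medium was the highest, and the 2 TNF libraries differed by less than their intervals. Hoxa6, with 5.30, 3.52, 5.99 and 4.73 RPM, gave -0.58 and -0.33. Hoxa5, a gene of lung and trunk development with 5.61, 6.62, 6.53 and 5.43 RPM, was the exception under control siRNA, at 0.24 and -0.26.

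The Hoxb cluster held the most abundant members and mostly small ratios. Hoxb9 had 909, 664, 997 and 838 reads, or 40.1, 35.5, 41.5 and 39.3 RPM, and its log2 ratios for TNF were only -0.18 and -0.08. Hoxb6 had 26.0, 23.1, 27.7 and 20.1 RPM, with ratios of -0.17 and -0.46. Hoxb13, the posterior gene set apart at the end of the cluster and known from prostate and tail, stood out from these with 185, 94, 191 and 97 reads, or 8.17, 5.02, 7.94 and 4.54 RPM. It was 1.62-fold lower under control siRNA (log2 -0.69, interval -1.08 to -0.34) and 1.73-fold lower under Sirt6 siRNA (log2 -0.79, interval -1.17 to -0.45), and the medium and TNF libraries did not overlap.

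The other Hoxb members were closer to no change. Hoxb2, with 10.5, 10.8, 13.9 and 11.3 RPM, gave 0.04 and -0.30. Hoxb3, with 5.39, 4.65, 7.07 and 5.58 RPM, gave -0.21 and -0.34. Both are hindbrain patterning genes. Hoxb5, which acts in enteric neural crest, had 4.99, 4.22, 5.74 and 3.94 RPM and gave -0.24 and -0.53. Hoxb8, with 3.97, 3.79, 5.07 and 3.42 RPM, gave -0.07 and -0.56. Hoxb7, with 9.84, 9.77, 10.2 and 12.0 RPM, gave -0.01 and 0.24. Hoxb4, best known from blood stem cells, differed in sign between the pairs and is described with the differences of the responses.

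Hoxc was the cluster with the smallest summed ratio, and several of its members were not lower with TNF. Hoxc12, a gene of the hair follicle, fell 2.10-fold under control siRNA (log2 -1.07, interval -2.08 to -0.29), but it rested on 43, 16, 23 and 13 reads, and under Sirt6 siRNA its log2 ratio was -0.58 (-1.75 to 0.39). Its levels were 1.90, 0.854, 0.956 and 0.609 RPM, so only the control siRNA library in medium met the minimum. Hoxc10 had 438, 273, 435 and 336 reads, or 19.3, 14.6, 18.1 and 15.7 RPM, with ratios of -0.41 (-0.63 to -0.19) and -0.20 (-0.41 to 0.01). Hoxc13 had 18.4, 18.2, 22.3 and 19.1 RPM, with ratios of -0.02 and -0.22. Of these, Hoxc10 had both TNF libraries below both medium libraries, and Hoxc13 did not.

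Hoxc9, with 9.58, 10.9, 10.1 and 9.04 RPM, gave 0.19 and -0.16. Hoxc8, which specifies brachial motor neurons and had 3.62, 4.43, 4.28 and 3.61 RPM, gave 0.29 and -0.24. Hoxc6, with 13.9, 13.3, 9.94 and 12.2 RPM, gave -0.06 and 0.29. In Hoxc6 the low library was Sirt6 siRNA in medium. Hoxc5, with 2.43, 1.71, 1.66 and 1.36 RPM, gave -0.48 and -0.27, and Hoxc11, with 2.56, 1.92, 2.33 and 2.2 RPM, gave -0.40 and -0.08. Both had intervals spanning no change in each pair.

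**Figure D3:**
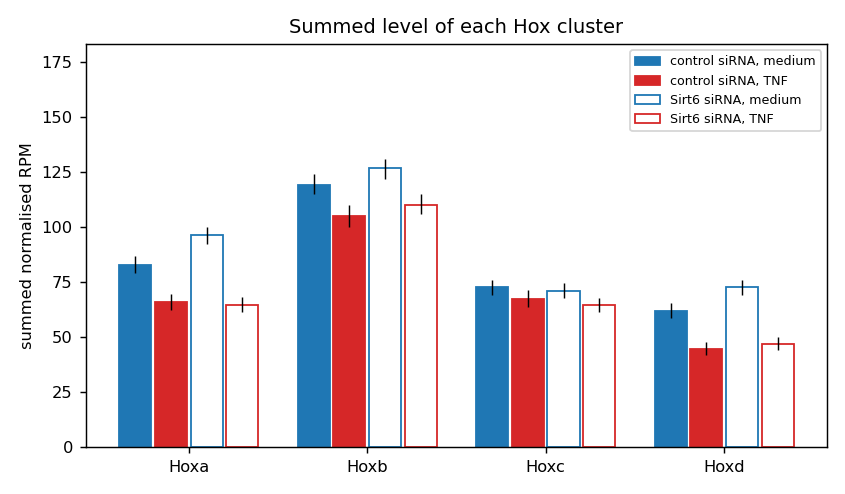
Summed TMM-normalised RPM of all members of each Hox cluster in each library, with exact Poisson 95% intervals of counting error as bars. Filled columns are control siRNA, open columns Sirt6 siRNA, blue medium and red TNF. The TNF columns are lower than their medium columns in Hoxa and Hoxd, and nearly level with them in Hoxc.

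Summed reads were also lower with TNF in every cluster, with narrower counting intervals than those of single genes. Under Sirt6 siRNA the sum was lowest in Hoxd, whereas the median had been lowest in Hoxa. With TNF the Hoxd sum gave log2 ratios of -0.47 (-0.60 to -0.35) under control siRNA and -0.63 (-0.74 to -0.51) under Sirt6 siRNA, and the Hoxa sum -0.33 (-0.44 to -0.23) and -0.58 (-0.68 to -0.48). The Hoxb sum gave -0.18 and -0.20, and the Hoxc sum -0.11 (-0.21 to 0.00) and -0.14 (-0.24 to -0.03). The counting intervals of Hoxd and Hoxc did not overlap in either pair. By class the posterior sum gave -0.35 and -0.42, the central sum -0.12 and -0.25, and the anterior sum -0.12 and -0.38. No sum passed the size rule.

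An additive model over the 4 libraries, with terms for siRNA and TNF, was fitted to all genes as an alternative. It treats the departure of the siRNA pairs from each other as error, and its spread is pooled over genes and does not come from replicates. Its TNF term was negative at a Benjamini-Hochberg adjusted p of at most 0.05 for 9 of the 33 Hox genes in edgeR's quasi-likelihood test (27.3%, against 15.1% of all genes), and positive for none of them (against 14.4%), in edgeR at an unadjusted p under 0.05 as well, and in DESeq2. The adjusted p was 4.28e-12 for Hoxd11, 6.13e-09 for Hoxa10, 3.29e-07 for Hoxd10, 6.17e-05 for Hoxa9, 0.000209 for Hoxb13 and 0.000796 for Hoxd9, all from edgeR. For Hoxb6, Hoxa7 and Hoxc10 it was 0.00353, 0.0161 and 0.0265 in the same edgeR test. DESeq2, fitted to the same model, called 3 of these 9 (9.09% of the 33, against 4.88% of all genes), with adjusted p-values of 0.000508 for Hoxd11, 0.00618 for Hoxa10 and 0.0126 for Hoxd10.

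**Figure D4:**
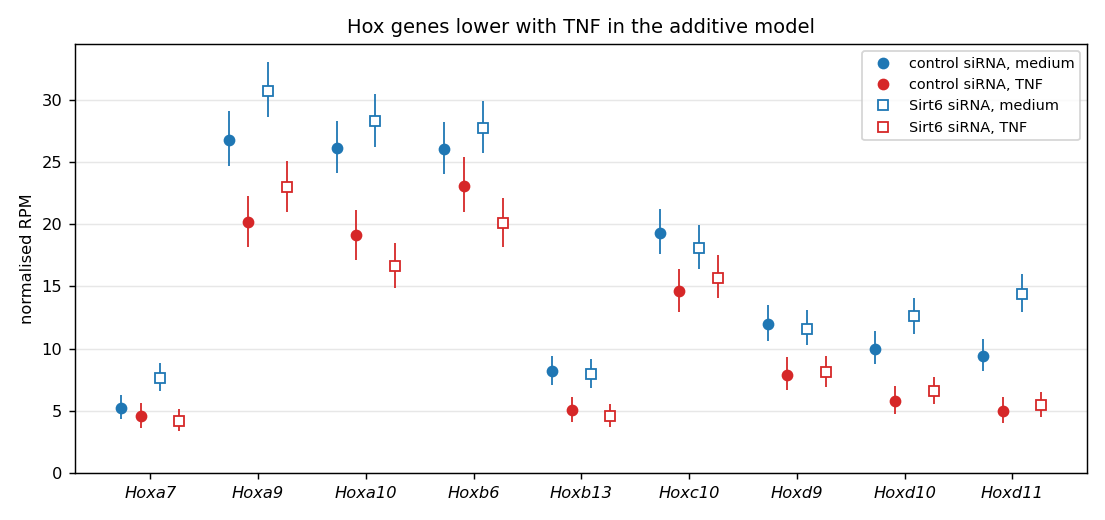
TMM-normalised RPM of the 9 Hox genes whose TNF term was negative in the additive edgeR model, with exact Poisson 95% intervals of counting error as vertical lines. Filled symbols are control siRNA, open symbols Sirt6 siRNA, blue medium and red TNF; each point is 1 library. The genes were picked by that term from these same libraries, so the separation of TNF from medium points follows largely from the choice. In every gene both TNF points lie below both medium points, with the widest gap in proportion for Hoxd11.

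Silencing of Sirt6 left the Hox profile largely as it was. In medium no Hox gene passed the size rule, against 1.01% of all genes, and with TNF only Hoxc4 did, which fell, against 1.05%. At 1.5-fold, 2 Hox genes differed in medium (6.06%, against 3.19% of all genes), Hoxd11 higher and Hoxc12 lower, and 1 with TNF (3.03%, against 3.25%), Hoxc4. For Hoxc12 the only library that met the minimum was again the high side of the comparison. For Hoxc4, control siRNA with TNF met the minimum and Sirt6 siRNA with TNF did not, so the minimum favoured that call too. The siRNA term of the additive edgeR model was called for no Hox gene at a Benjamini-Hochberg adjusted p of 0.05, against 6.59% of all genes, and at an unadjusted p under 0.05 for 4 (12.1%), Hoxa9, Hoxc6, Hoxd8 and Hoxd11, against 17.2% of all genes. DESeq2 called none either, with an adjusted p given as NA for 26 of the 33.

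In medium, small positive ratios predominated. Of the 33 genes, 24 (72.7%) were higher with Sirt6 siRNA, against 50.1% of all genes, with a median log2 ratio of 0.11, and 23 were higher after GC correction. Of the 9 mesothelium markers 8 were higher with Sirt6 siRNA as well, in medium (median 0.15) and with TNF (median 0.20), and their part in the Hox ratios was not tested. With TNF, 16 (48.5%) were higher, against 49.4%, with a median of -0.10. These 2 comparisons share no library, but each shares its libraries with the TNF comparisons. All 9 measured Hoxa genes were higher in medium, from 0.06 for Hoxa11 to 0.58 for Hoxa3, also after GC correction, and the Hoxa sum gave 0.22 (0.13 to 0.31). The Hoxd sum gave 0.23 (0.13 to 0.33), the Hoxb sum 0.09 (0.02 to 0.17) and the Hoxc sum -0.03 (-0.13 to 0.07). With TNF present the corresponding ratios were -0.03, 0.07, 0.07 and -0.06, all with intervals that include 0.

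**Figure D5:**
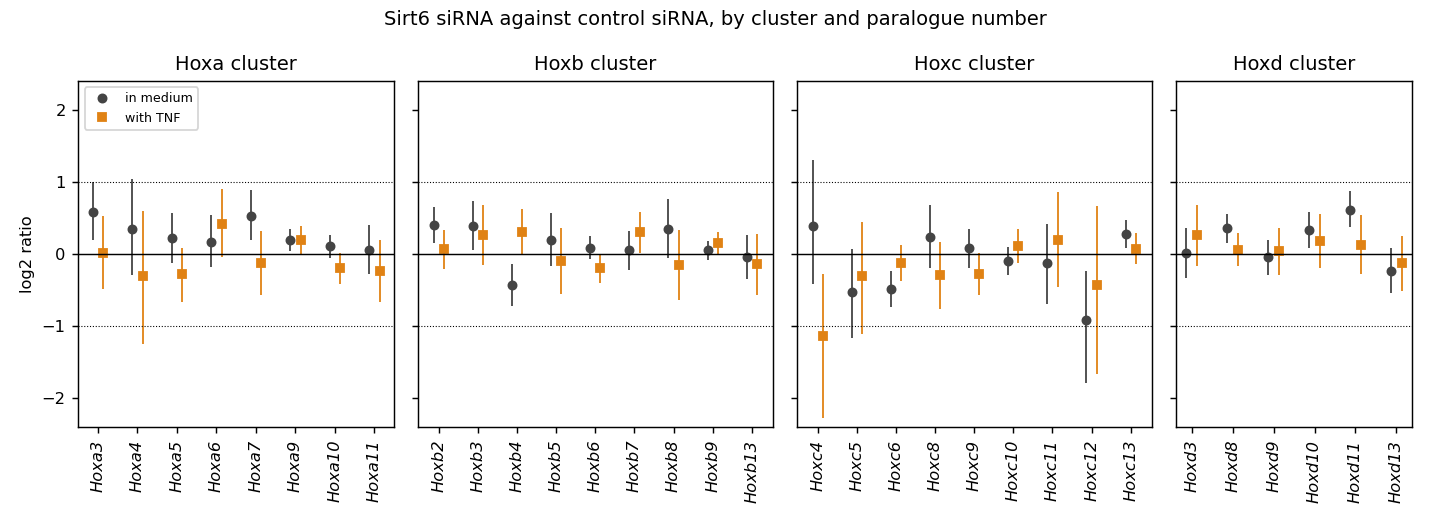
Log2 ratio of Sirt6 siRNA against control siRNA for measured Hox genes, ordered by paralogue number within its cluster. Circles are the pair in medium, squares the pair with TNF, vertical lines 95% intervals of counting error, and dotted lines a ratio of 2 either way. All Hoxa circles drawn lie above 0, and Hoxc4 with TNF, at -1.13, is the point beyond the dotted lines.

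Among single genes in medium, Hoxd11 had the highest ratio, at log2 0.61 (0.37 to 0.87), or 1.53-fold. Hoxa3 gave 0.58 (0.19 to 1.00), Hoxa7 0.53 (0.20 to 0.89) and Hoxb2 0.40 (0.16 to 0.65). On the other side Hoxc12 gave -0.92 (-1.79 to -0.23), Hoxc6 -0.48 (-0.73 to -0.23) and Hoxb4 -0.43 (-0.72 to -0.14). With TNF the same genes gave 0.13 for Hoxd11, 0.02 for Hoxa3, -0.12 for Hoxa7, 0.07 for Hoxb2, -0.43 for Hoxc12, -0.13 for Hoxc6 and 0.30 for Hoxb4, each with an interval that includes 0.

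The TNF responses with and without Sirt6 siRNA were compared by subtracting the log2 ratio of the control siRNA pair from that of the Sirt6 siRNA pair. The median of this difference over the 33 genes was -0.21, against 0.01 over all genes. To pass, a difference had to reach 1 in size, and its delta-method 95% interval had to leave out 0. Hoxc4 alone did so, against 1.68% of all genes. It had 21, 29, 30 and 14 reads, or 0.927, 1.55, 1.25 and 0.656 RPM, with log2 ratios for TNF of 0.69 (-0.12 to 1.62) and -0.84 (-1.96 to 0.03) and a difference of -1.53 (-2.84 to -0.42). Its TNF libraries were thus the highest and the lowest. Only control siRNA with TNF and Sirt6 siRNA in medium met the 1 RPM minimum. Both make the difference more negative, so the minimum favoured its passing.

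Hoxb4 showed the opposite difference with more reads. It had 226, 147, 178 and 207 reads, or 9.98, 7.85, 7.40 and 9.70 RPM. TNF gave -0.34 (-0.66 to -0.04) with control siRNA and 0.39 (0.09 to 0.69) with Sirt6 siRNA, and the difference was 0.73 (0.32 to 1.15), under the size set. Hoxa7 gave a difference of -0.65 (-1.20 to -0.12) and Hoxd11 one of -0.49 (-0.95 to -0.02). Hoxa9 gave -0.01 (-0.25 to 0.24).

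The cofactors of Hox proteins were lower with TNF as well. Of 9 Pbx, Meis and Pknox genes, all measured, 8 were lower in each pair, against 50.2% and 51.6% of all genes. Their medians were -0.25 and -0.45. Meis1, a partner of posterior Hox proteins, had 338, 160, 413 and 159 reads, with a log2 ratio of -0.80 (-1.08 to -0.53) under control siRNA, and it fell under Sirt6 siRNA, at -1.19 (-1.48 to -0.94). Pknox2 fell there too, at -1.93 (-3.79 to -0.97), and had risen with Sirt6 siRNA in medium, at 1.99 (1.05 to 3.88), on 6, 6, 32 and 6 reads, so that 1 library stands apart. Only that library met the 1 RPM minimum, and it is the high side of both calls, which the minimum thus favoured. Of the 9 cofactors, 2 fell under Sirt6 siRNA, against 3.66% of all genes called in either direction. With Sirt6 siRNA in medium 1 rose, against 1.01%. The additive edgeR model put 5 of the 9 cofactors lower with TNF (against 15.1% of all genes) and none higher (against 14.4%), with an adjusted p of 1.71e-12 for Meis1.

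Chromatin regulators of the clusters differed with TNF in both directions, by small amounts. None of 30 Polycomb group genes, which keep Hox genes silent, and none of 15 Trithorax group genes and demethylases, which oppose them, passed the size rule in any comparison. The median log2 ratio for TNF was -0.13 and -0.03 in the Polycomb group and -0.03 and -0.02 in the Trithorax group. Of the 30 Polycomb genes 22 and 16 were lower, against 50.2% and 51.6% of all genes. In the additive edgeR model 9 Polycomb genes were lower and 6 higher with TNF (edgeR adjusted p of 0.05 or less), and 3 Trithorax group genes were lower and 2 higher, against 15.1% lower and 14.4% higher of all genes. Cbx6, a subunit that reads the Polycomb mark, gave -0.52 and -0.57 (edgeR adjusted p = 5.34e-22), and Aebp2, a Polycomb accessory subunit, gave 0.42 and 0.39 (edgeR adjusted p = 4.17e-14). Kdm6b, a demethylase of the Polycomb mark, gave 0.54 and 0.36 (edgeR adjusted p = 1.39e-11). Of 13 measured retinoic acid pathway genes (18 listed), 2 fell with TNF under control siRNA (against 3.53% of all genes) and 1 under Sirt6 siRNA (against 3.66%), and none rose. The additive edgeR model put 5 lower and 1 higher at a Benjamini-Hochberg adjusted p of at most 0.05, against the same 15.1% and 14.4% of all genes. The higher one was Rdh10, a retinol dehydrogenase, with ratios of 0.64 and 0.79 (edgeR adjusted p = 1.67e-11). Dhrs3, a retinaldehyde reductase induced by retinoic acid, had 262, 51, 311 and 61 reads and fell in both pairs, at -2.05 and -2.14. Crabp2, which carries retinoic acid to the nucleus, fell under control siRNA at -1.04 (-2.13 to -0.21) and gave -0.73 (-1.67 to 0.05) under Sirt6 siRNA. It had 37, 14, 37 and 19 reads, or 1.63, 0.748, 1.54 and 0.89 RPM. Only the medium libraries, the high side of its call, met the 1 RPM minimum, which thus favoured that call.

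Markers of other cell types moved with TNF in these libraries. The 9 mesothelium genes summed to 3820, 3180, 4120 and 3470 RPM. All 9 were lower with TNF in both pairs, against 36.8% of all genes, with median log2 ratios of -0.32 and -0.29. None of them was at 0. The 20 fibroblast and mesenchyme genes summed to 11900, 11100, 12400 and 11500 RPM, with medians of -0.17 and -0.14, and Lum alone had no read. The 24 colon epithelium genes summed to 1830, 1360, 1520 and 1210 RPM, with Car1, Cdx1, Guca2a and Tff3 at 0 in all libraries. Most of that sum was Krt8, Krt18 and Krt19, at 656, 612 and 528 RPM with control siRNA in medium. Krt19 is also 1 of the mesothelium genes. The 8 measured colon epithelium genes had medians of -0.25 and -0.05, with 5 and 6 of them lower, against 50.2% and 51.6% of all genes. Across 14941 genes the log2 ratio for TNF had a Spearman correlation with GC content of -0.143 and -0.235, given as a description, and the measured Hox genes had a median GC content of 53.4%, against 49.7% overall. The part of cell makeup in the Hox ratios was not tested.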

How the data were processed

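RNA was sequenced from 4 samples, 1 per group. Per the labels' protocols, oligo-dT beads took polyadenylated RNA from total RNA, and the NEBNext Ultra kit turned it into libraries. The deposited table gives read counts per gene, per the file headers, and scaled values headed RPKM, which in fact are RPM: they equal counts divided by the library total, to within 0.0005, with no gene length. CASAVA, Bowtie 1.0.1 and edgeR were named, per the submitters' processing notes; not given in the sources used here were the genome build, the annotation and the tool that counted reads. Library totals were 22422365, 18793708, 23749380 and 21755516 reads; a count of 0 allows 3 reads, or 0.126 to 0.16 RPM. There were no molecular identifiers, so reads are not independent molecules, and every interval or floor covers counting error alone.

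Counts were analysed in Python 3.11.15, R 4.3.3 and edgeR 4.0.16. The minimum for a gene was 1 RPM in any 1 of the libraries, libraries were scaled by TMM, and log2 ratios used a prior count of 2. Poisson and conditional binomial intervals are exact at 95%; the delta-method interval added 0.5 to each count. Pairs of libraries got no p-value. The additive model had 1 residual degree of freedom and a common biological coefficient of variation of 0.039. The edgeR adjusted p-values are over all 15274 genes; DESeq2 1.42.0 was the alternative tool, and gave NA as the TNF adjusted p of 593 of them. Scripts were tested on simulated data. Exon lengths and overlaps came from GENCODE M21, promoters from RefSeq. The matching genes were named, except that some results are not reported here; of the other lists, up to 4 members past the size rule were named by largest mean ratio, beside Sirt6 and Cdx2; the keratins, Epcam and Cdx1 among the markers, and Cbx6, Aebp2, Kdm6b and Rdh10, were chosen after their values were seen. The members and lists were chosen with earlier results of these data known. The 4 libraries were assigned to groups by their titles. Alternatives were other scalings, filters, prior counts, a 1.5-fold bar, GC correction and both additive models.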

Additional observations from a re-analysis of the deposited data

Results flagged for a closer look

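Hoxc4 was singled out because TNF gave ratios of opposite sign under the 2 siRNAs and the difference itself passed the size and interval set for it. The log2 difference of the TNF responses was -1.53 (95% interval of counting error -2.84 to -0.42). It rested on 21 and 29 reads with control siRNA and on 30 and 14 reads with Sirt6 siRNA, in medium and with TNF respectively. Hoxc4 was among the 11 measured Hox genes with a mean under 5 RPM. It met the 1 RPM minimum only with control siRNA and TNF and with Sirt6 siRNA in medium. Reads in both of those libraries make the difference more negative, so the minimum favoured its passing. Each group was 1 library, and the difference has no replicate check.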

How the results depend on the processing

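No paired analysis was possible because each group has 1 library, which leaves no replicate numbers to pair; the additive models set TNF against medium within each siRNA. For the same reason no library could be left out of a comparison, and depth limits the thinly read members: 11 of the 33 measured genes had a mean under 5 RPM. The number of Hox genes past the size rule with TNF under control siRNA, 1 as reported, became 0 with GC correction or a mean of at least 5 RPM, 2 without the filter on low counts and 5 at 1.5-fold. Under Sirt6 siRNA the count of 2 became 1 with DESeq2 size factors or a mean of at least 5 RPM, and 8 at 1.5-fold. The additive models call by adjusted p alone, with no bar on size, on 1 TNF term over both siRNAs, and called 9 Hox genes in edgeR and 3 in DESeq2. For Sirt6 siRNA in medium the count of 0 became 1 without the filter and 2 at 1.5-fold; with TNF the count of 1 became 0 at a mean of at least 5 RPM, and the siRNA term of both additive models called 0. Without the filter, the gene added for TNF under control siRNA and for Sirt6 siRNA in medium was Hoxa2. It was higher in both, at log2 1.91 (0.54 to 5.95) and 2.15 (0.93 to 6.16), on 2 reads in the denominator. The difference of the TNF responses passed for 0 genes at a mean of at least 5 RPM, 2 without the filter and 3 at 1.5-fold, against 1 as reported.

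The median log2 ratio for Sirt6 siRNA with TNF changed sign, from -0.10 to 0.06, at a mean of at least 5 RPM; the set of genes then was 22 of 33. The median for TNF under Sirt6 siRNA went from -0.40 to -0.33 with GC correction, -0.32 at a mean of at least 5 RPM and -0.34 without the filter. That for Sirt6 siRNA in medium went from 0.11 to 0.19 without the filter, and that for the difference from -0.21 to -0.14 at a mean of at least 5 RPM and -0.29 without the filter. Without its most deeply read member the central sum for Sirt6 siRNA with TNF was 0.01, and the Hoxc sum for the difference was 0.04. Among single genes, Hoxc12 under control siRNA left the size rule with TNF at a prior count of 5, at -0.97, and with GC correction, at -0.94. The cause of these shifts was not tested, apart from the change in the genes compared.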
